A study of Mus musculus with 20 samples.

Results

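The 10 genes described here are imprinted genes with known roles in growth: *Meg3*, *Rian*, *Mirg*, *Dlk1*, *H19*, *Igf2*, *Cdkn1c*, *Peg3*, *Mest* and *Plagl1*. They were taken by symbol from a table of read counts for 24411 genes in 20 mouse kidneys. *Meg3* was selected on its level in male mutants and male controls, where it was low in the mutants, so its difference between male mutants and male controls is a description here and carries no test. The other 9 were chosen as further members of the same class. All 10 are in the table, and 7 passed the filter on low counts among females and 6 in each of the other comparisons.

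The kidneys came from male and female inbred C57BL/6 mice at P125 (days after birth), 5 mice for each sex and genotype. Every mouse carried floxed *Pkd2* alleles (Pkd2 fl/fl), and *Pkd2* encodes polycystin-2, a cation channel of the primary cilium whose loss leads to kidney cysts. Mutants (Pkd2fl/fl; Pax8; Tet-O-Cre +) also carried Pax8rtTA and TetOCre, so that doxycycline turned Cre on in cells that use the *Pax8* promoter, which are the tubule cells from proximal tubule to collecting duct. Controls lacked Pax8rtTA or TetOCre. Mice of both genotypes were given doxycycline hyclate at 50 mg per kg on postnatal days 27 to 29. Other kidney cells, such as podocytes, endothelium and stroma, keep *Pkd2* in this model. Each library is the RNA of a whole kidney of 1 mouse, and the mice came from 3 litter groups, named A, B and C here.

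In an imprinted gene only the copy from 1 parent is used, and which copy is used is set by DNA methylation laid down in the egg or sperm. Many such genes act on fetal growth: *Igf2*, used from the paternal copy, favours growth, and *Cdkn1c* and *Meg3*, used from the maternal copy, restrain cell division. Most are turned down strongly after birth, so an adult kidney gives low counts for many of them. Read counts of a whole kidney do not tell the parental copies apart. They also cannot tell fewer cells of a type from less RNA per cell.

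Total counts per library ranged from 11307741 to 19324073. *Pkd2* checked the genotype labels, with 291.7 ± 31.3 CPM, the count scaled to library size with edgeR's TMM factors (SD, n = 5), in male controls, 119.5 ± 9.85 in male mutants, 257.0 ± 48.7 in female controls and 144.5 ± 33.7 in female mutants. Mutants and controls of each sex did not overlap. A pair of libraries stood apart. Female mutant 4 had counts on 14850 genes, where the other libraries had them on 16776 to 17724. It had 76 genes with exactly 1 count, where the other libraries had 708 to 859. Its 0 counts, among them those of *Rian*, *Mirg*, *Dlk1*, *H19* and *Ins2* given below, are therefore less certain than those of other libraries. Female mutant 3 had a summed level of 419.0 CPM for 6 fat cell markers (*Cfd*, *Adipoq* and *Cidec* were the highest), and the other 19 libraries had at most 126.8. Kidney tubule markers, led by *Umod*, *Slc34a1* and *Lrp2*, summed to between 9307 and 17357 CPM in all 20 libraries. Other tissue markers were low, with sums of 0.811 to 5.69 CPM for adrenal medulla and nerve, 1.03 to 4.70 for skeletal muscle and 3.595 to 60.2 for urothelium, the highest of the last again in female mutant 3. Nothing in the labels ties the numbers of the mice to each other across groups, and the numbers used here only name the mice.

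The members lie in 5 places of the mouse genome (RefSeq positions, GRCm38.p6, the mm10 assembly used for the alignment). *Dlk1* (chr12:109452485-109463336), *Meg3* (chr12:109540996-109571729), *Rian* (chr12:109603945-109661716) and *Mirg* (chr12:109734981-109749458) form a row on the plus strand of chromosome 12. *H19* (chr7:142575530-142578146), *Igf2* (chr7:142650768-142666816) and *Cdkn1c* (chr7:143458339-143461059) lie on the minus strand of chromosome 7, where *Peg3* (chr7:6703892-6730462) lies at the other end. *Mest* (chr6:30733506-30748466) and *Plagl1* (chr10:13090832-13131694) are on the plus strand. *Meg3*, *Rian*, *Mirg* and *H19* are long noncoding RNAs, and the other 6 encode proteins.

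Promoter windows from RefSeq were used for 8 of the 10 members, 14 windows in all, and those of *H19* and *Cdkn1c* were not analysed here. The 250 bases before the outermost start are shown for the 3 members on which most of the results turn, *Meg3*, *Igf2* and *Plagl1*. They are written 5′ to 3′ on the transcribed strand with each CG, the pair of bases that carries DNA methylation, in capitals.
*Igf2*, chr7:142666817-142667066, minus strand: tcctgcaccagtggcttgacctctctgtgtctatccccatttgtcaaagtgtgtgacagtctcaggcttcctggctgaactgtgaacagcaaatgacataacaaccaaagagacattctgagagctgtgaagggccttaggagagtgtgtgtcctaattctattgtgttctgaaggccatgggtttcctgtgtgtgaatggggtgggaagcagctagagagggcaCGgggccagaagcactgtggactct
*Meg3*, chr12:109540746-109540995, plus strand: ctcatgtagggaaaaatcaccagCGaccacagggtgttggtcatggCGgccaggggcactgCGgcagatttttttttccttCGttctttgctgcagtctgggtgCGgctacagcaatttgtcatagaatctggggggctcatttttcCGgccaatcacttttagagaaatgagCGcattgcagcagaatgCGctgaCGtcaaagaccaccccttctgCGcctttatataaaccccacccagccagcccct
*Plagl1*, chr10:13090582-13090831, plus strand: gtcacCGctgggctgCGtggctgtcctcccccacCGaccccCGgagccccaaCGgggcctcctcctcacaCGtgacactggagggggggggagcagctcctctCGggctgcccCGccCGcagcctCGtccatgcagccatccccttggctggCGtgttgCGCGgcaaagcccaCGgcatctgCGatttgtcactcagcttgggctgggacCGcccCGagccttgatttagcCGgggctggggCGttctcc
The *Igf2* window held 1 CG, the *Meg3* window 10 and the *Plagl1* window 19, where the median over 32851 windows of all genes was 6, with quartiles of 2 and 16. *Igf2* has 3 more listed starts inside its span, with 10, 22 and 6 CG in their windows, and the gene count adds the transcripts of all of them. The letters TATAAA occurred in the *Meg3* window on the transcribed strand 25 bases before the start, and on the other strand 29 bases before it, the pair overlapping by 2 letters. A match to TATAAA on either strand occurred in 12.4% of all windows. The oestrogen response element (GGTCA, any 3 bases, TGACC) and the androgen response element (AGAACA, any 3 bases, TGTTCT) were searched on both strands. Neither occurred in any of the 14 windows, and they occurred in 0.0639% and 0.00913% of all windows. The STAT5 motif TTCNNNGAA, which reads the same on both strands, occurred in the *Rian* window alone among the 14, and in 7.02% of all windows.

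*Igf2* and *Meg3* also hold microRNAs inside their spans. The mature sequences are given to show what the host transcripts carry, with the seed (bases 2 to 8), which pairs with target RNAs, in capitals.
miR-483-5p, in *Igf2*: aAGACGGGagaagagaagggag
miR-483-3p, in *Igf2*: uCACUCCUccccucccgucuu
miR-770-5p, in *Meg3*: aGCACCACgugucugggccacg
miR-770-3p, in *Meg3*: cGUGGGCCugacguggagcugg
The 4 seeds differ from each other. The rows of both hairpins had 0 counts in all 20 libraries, and libraries of this kind do not measure mature microRNAs.

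Levels of different genes can be compared only per length, here as CPM per kilobase of annotated exon. In female controls *Igf2* was highest at 23.2 ± 5.91 CPM per kb (SD, n = 5), next to *Cdkn1c* at 18.1 ± 2.51, and these overlap within their spread. *Plagl1* (2.20 ± 0.126), *Peg3* (1.13 ± 0.367) and *Mest* (0.599 ± 0.0925) followed. *Meg3* was at 0.0817 ± 0.0288, *Dlk1* at 0.0576 ± 0.0315, *H19* at 0.0458 ± 0.0308 and *Rian* at 0.0282 ± 0.0159, which overlap each other within their spread. *Mirg* was lowest at 0.00371 ± 0.00514. In male controls the order was led by *Cdkn1c* (11.1 ± 1.82 CPM per kb), and *Igf2* ranked 5 of 10 at 0.452 ± 0.102, within the spread of *Mest* at 0.529 ± 0.125.

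**Figure D1:**
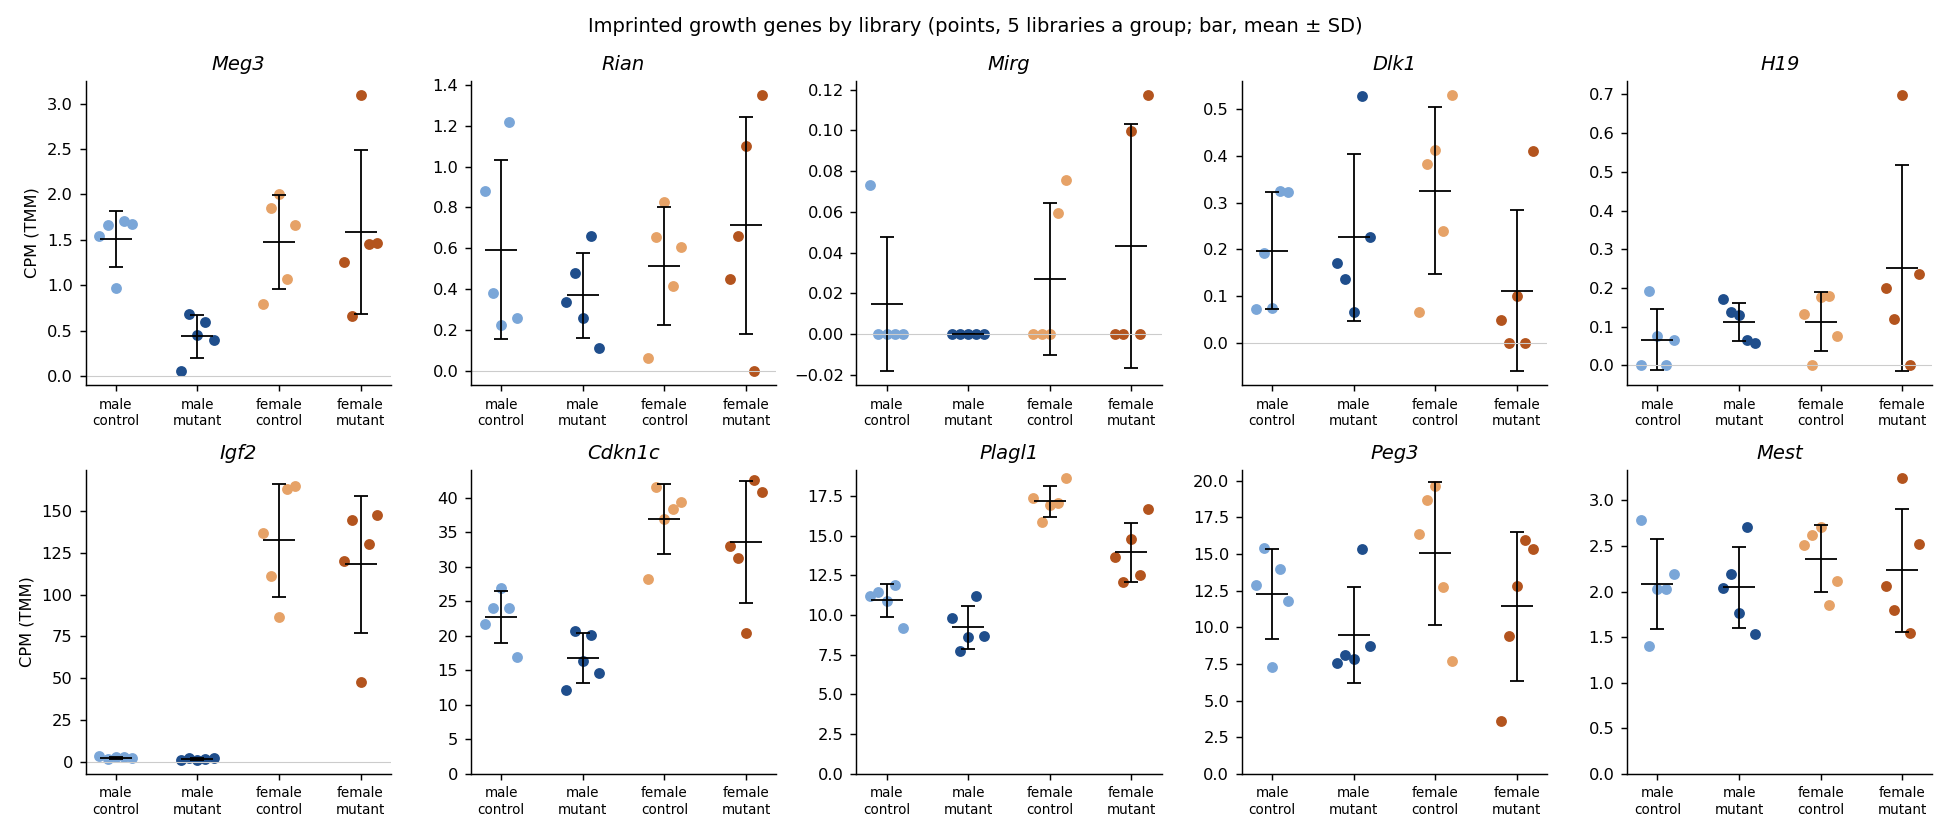
CPM of the 10 members (vertical axes, one panel a gene, linear scale) in the 20 libraries, with points for the 5 libraries of each sex and genotype and a black bar for the group mean ± SD. *Igf2* is at 1.19 to 3.38 CPM in the 10 males and at 47.8 to 164.7 in the 10 females, and *Meg3* is lowest in the 5 male mutants among males.

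*Igf2*, the gene of insulin-like growth factor 2, a fetal growth factor that signals through the IGF1 and insulin receptors, was 52.7 times higher in female than in male controls and 64.4 times higher in female than in male mutants. The 5 male controls had 46, 28, 37, 33 and 36 counts, and the 5 female controls had 2071, 2035, 1469, 2739 and 2176. Male mutants had 21, 33, 21, 30 and 43 counts and female mutants 2392, 2411, 957, 1518 and 2514. No male reached the lowest female, female mutant 3, which was also the library with the highest level of fat cell markers.

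In CPM the means were 2.59 ± 0.586 (SD, n = 5) in male controls and 132.5 ± 33.8 in female controls. The log2 difference (male minus female) was −5.72 ± 0.222 (SE), or 52.7-fold, with an adjusted p of 3.37e-09 in edgeR's quasi-likelihood test. Of 14123 genes tested in controls, 17.8% differed between the sexes at an adjusted p under 0.01, and *Igf2* ranked 29th by the size of its log2 difference. Among mutants the means were 1.85 ± 0.548 CPM in males and 118.0 ± 40.8 in females, a log2 difference of −6.01 ± 0.337 (64.4-fold, edgeR adjusted p = 2.83e-06, ranked 25th of 14416). There 5.42% of the genes tested differed between the sexes. The 2 estimates come from different mice, but the mice are of the same 3 litter groups, so the estimates are not fully independent.

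The sex difference of *Igf2* was present in every litter group. It was −5.67, −5.37 and −6.07 in controls of litter groups A, B and C on the log2 CPM scale, and −6.08, −5.76 and −5.84 in mutants. With each mouse left out in turn, the fitted difference stayed between −5.82 and −5.60 in controls and between −6.18 and −5.89 in mutants. Summed markers of stroma and fibroblasts, cells that use *Igf2* in many tissues, were 228.4 to 292.8 CPM in male controls and 317.4 to 490.9 in female controls. In mutants they were 394.8 to 1117 CPM in males and 458.2 to 1475 in females. Their part in the *Igf2* difference was not tested. Of 10 adrenal cortex markers, summed levels were 8.59 to 9.15 CPM in male controls and 9.79 to 12.2 in female controls, mostly from *Star* and *Akr1b7*. The adrenal enzyme genes *Cyp11b1* and *Cyp11b2* had 0 counts in all 10 females, and *Cyp21a1* had 1 count in them. Others of the list had more counts in female than in male controls: *Hsd3b1* 9 against 0, *Cyp11a1* 6 against 2 and *Mc2r* 33 against 15. *Hsd3b6* had 0 against 1. The part of the adrenal markers in the *Igf2* difference was not tested.

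Genotype did not move *Igf2* beyond its spread in females. The log2 difference (mutant minus control) was −0.15 ± 0.257 (edgeR adjusted p = 0.823), with a 95% interval of −0.65 to 0.36. In males it was −0.49 ± 0.273, given as a description because this contrast was read by the choice of *Meg3*.

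The genes next to *Igf2* were examined after its values were seen. *Igf2os*, a noncoding gene on the opposite strand that shares 7137 bases of its span with *Igf2*, had 4 counts in all male controls together and 249 in all female controls, and 1 and 179 counts in male and female mutants. The female to male ratio of summed CPM was 54.5 in controls, with a 95% counting interval of 21.03 to 202, and 168 in mutants, with an interval of 29.8 to 6685. Whether the counting used strand is not given in the sources used here, so reads of *Igf2os* and *Igf2* cannot be told apart with certainty.

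*Ins2*, one of the 2 insulin genes of the mouse, starts 12.9 kb upstream of *Igf2*. It had 0 counts in all 10 males, which allows up to 0.0426 CPM in male controls and 0.0374 in male mutants (3 counts over each group). Female controls had 10, 2, 4, 1 and 7 counts and female mutants 6, 6, 0, 0 and 2. Against those limits the summed level was at least 7.01-fold higher in female than in male controls and at least 4.39-fold higher in female than in male mutants. With the counting error of the female sums included, the lower 95% bounds of the ratios were 5.27 and 3.12. These limits and intervals cover counting error only. The other insulin gene, *Ins1*, had 0 counts in all 20 libraries, and 6 pancreas markers summed to at most 0.350 CPM in any library.

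Farther out the difference was not seen at this size. Within 1000 kb of the *Igf2* start, 22 other genes were tested in controls, with log2 sex differences from −0.74 to 0.50, and 22 in mutants, from −1.50 to 0.59. In controls 4 of the 22 differed, where 17.8% of all genes did, with *Cdkn1c*, *Kcnq1* and *Mrpl23* lower in males and *Slc22a18* higher. In mutants the smallest adjusted p among them, in edgeR, was that of *Cdkn1c* (0.0159). *H19*, the maternally used noncoding RNA that shares enhancers with *Igf2* in the embryo, starts 88.7 kb away and was near the detection limit in both sexes. Its counts summed to 5 in male controls, 9 in male mutants, 9 in female controls and 24 in female mutants, 14 of the last in female mutant 3. It was filtered out of every comparison.

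**Figure D2:**
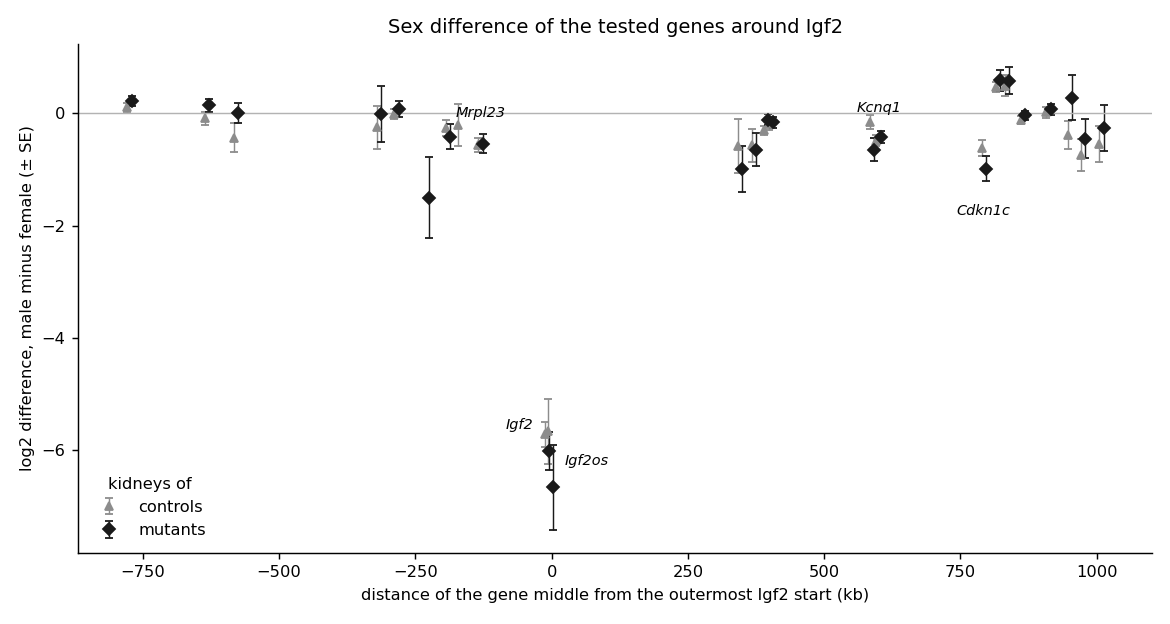
Log2 sex difference (vertical axis, male minus female, ± SE) of the tested genes around *Igf2* against their distance from its outermost start (horizontal axis, kb), with grey triangles for controls and black diamonds for mutants. *Igf2* and *Igf2os* lie between −5.66 and −6.66, and the other genes tested lie between −1.50 and 0.59.

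*Igf2r*, the receptor that takes IGF2 to the lysosome and is itself imprinted, went the other way. It was 196.0 ± 27.8 CPM (SD, n = 5) in male controls and 128.6 ± 11.6 in female controls, and the groups did not overlap. The log2 difference (male minus female) was 0.71 ± 0.105 in controls and 0.90 ± 0.137 in mutants (edgeR adjusted p = 3.36e-04 and 0.00209). *Airn*, the noncoding RNA transcribed against *Igf2r* from the paternal copy, was also higher in males, at 11.0 ± 2.29 CPM in male and 3.85 ± 0.813 in female controls (log2 difference 1.46 ± 0.190, adjusted p = 1.34e-04). In mutants *Airn* was 18.7 ± 4.67 CPM in males and 3.48 ± 0.832 in females (2.45 ± 0.238, adjusted p = 1.10e-04). The pair overlaps on opposite strands, so part of one count may belong to the other.

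**Figure D3:**
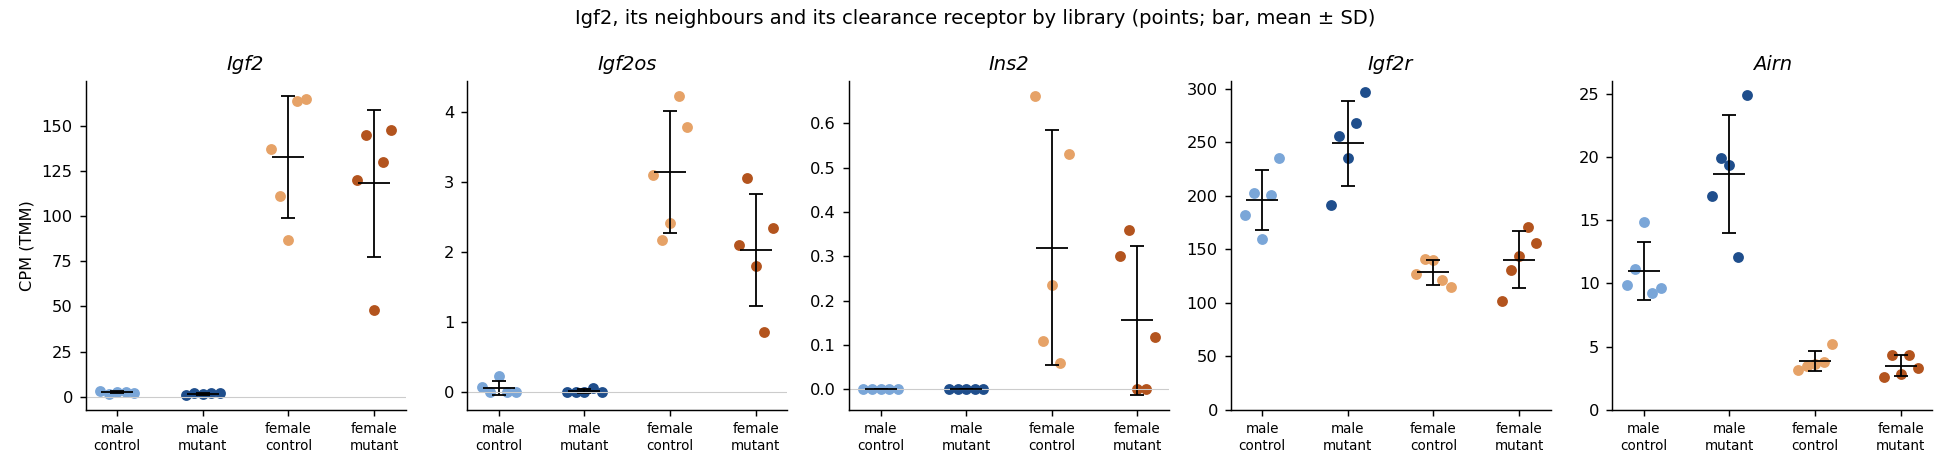
CPM (vertical axes, linear scale) of *Igf2*, its neighbours *Igf2os* and *Ins2*, and the *Igf2r* and *Airn* pair in the 20 libraries, with points for libraries and a black bar for the group mean ± SD. The first 3 are at or near 0 in males, and the last 2 are higher in males.

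Of 24 genes of the IGF pathway (ligands, receptors, binding proteins and their proteases), 22 were tested in controls and 11 differed between the sexes, 4 higher and 7 lower in males, where 17.8% of all genes tested differed. The median log2 difference of the 22 was −0.09, against −0.01 over all genes tested. After *Igf2*, the smallest adjusted p among those lower in males belonged to *Igfals*, the acid-labile subunit that holds IGFs in the blood, at 10.3 ± 1.93 CPM in male and 38.2 ± 8.79 in female controls (log2 difference −1.97 ± 0.182, edgeR adjusted p = 8.49e-06). *Stc2*, an inhibitor of the protease that frees IGFs from their binding proteins, was also lower in males (−1.22 ± 0.194, adjusted p = 5.86e-04). *Igf2bp1*, an RNA-binding protein of *Igf2* mRNA, was higher in males at 9.08 ± 1.14 against 1.91 ± 0.641 CPM (2.38 ± 0.215, adjusted p = 6.83e-06), and so was the protease gene *Htra1* (0.38 ± 0.0821, adjusted p = 0.00447).

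In mutants 5 of 23 IGF pathway genes differed between the sexes, where 5.42% of all genes did, with a median of −0.30 against −0.03 over all genes. These were *Igf2* and *Igfals* (−1.66 ± 0.226, edgeR adjusted p = 0.00110), lower in males, and *Igf2r*, *Igf2bp1* (1.47 ± 0.227, adjusted p = 0.00233) and *Htra1* (0.56 ± 0.109, adjusted p = 0.00779), higher in males. Each had the same direction as in controls.

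*Cdkn1c* and *Plagl1* were moderately higher in females. *Cdkn1c* encodes p57, an inhibitor of cyclin-dependent kinases that podocytes keep in the adult. Male controls had 295, 377, 359, 296 and 263 counts and female controls 428, 763, 626, 645 and 520. In CPM these were 22.7 ± 3.71 and 36.9 ± 5.11 (SD, n = 5), and the groups did not overlap. The log2 difference (male minus female) was −0.61 ± 0.141 (edgeR adjusted p = 0.00620), and in litter groups A, B and C it was −0.23, −0.69 and −1.21. The call was lost without male control 1, 2, 4 or 5 and without female control 2, 4 or 5, with adjusted p of up to 0.0507, and with all 20 libraries in 1 fit (adjusted p = 0.02). In mutants the difference was −0.99 ± 0.223 with an adjusted p of 0.0159, above the threshold of 0.01, and it passed without female mutant 3.

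Podocyte markers were also lower in males. The podocyte list has 5 genes, of which *Podxl* and *Synpo* were the highest. Its sum was 246.1 to 380.7 CPM in male controls and 471.2 to 612.7 in female controls. All 5 genes were called lower in males, where 17.8% of all genes differed, with a median log2 difference of −0.65. In mutants the sums were 219.8 to 323.8 CPM in males and 343.4 to 442.4 in females, with a median of −0.69. There 1 of 5 (*Synpo*) passed the test, where 5.42% of all genes did. The part of podocyte markers in the *Cdkn1c* difference was not tested. Endothelial markers were lower in male controls too, 6 of 6 genes, with sums of 253.1 to 312.2 CPM against 351.8 to 441.9. In mutants 0 of the 6 passed, where 5.42% of all genes did, and 1 of them had an unadjusted p under 0.05. Of 8 tubule markers, 4 were called lower and 1 higher in male controls, and 0 were called in mutants.

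**Figure D4:**
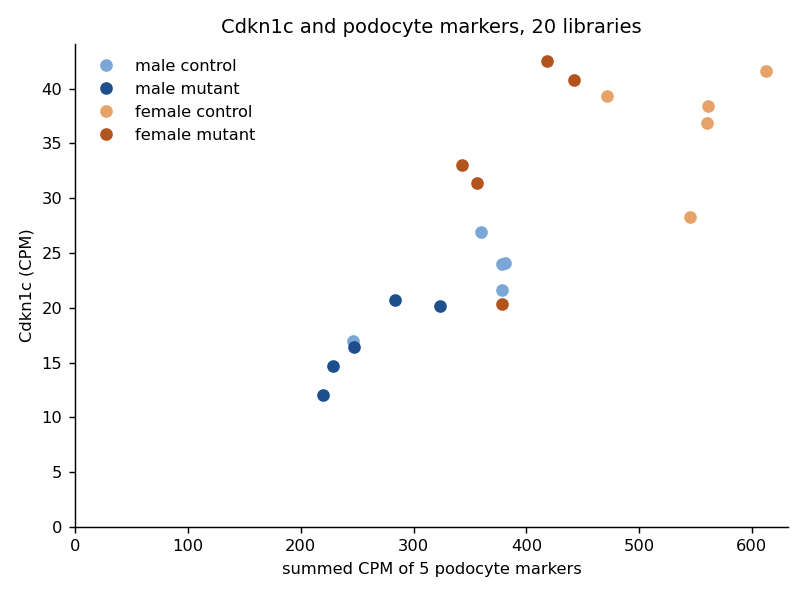
*Cdkn1c* (vertical axis, CPM) against the summed CPM of 5 podocyte markers (horizontal axis) in the 20 libraries, coloured by sex and genotype. Female controls have the highest podocyte sums, 471.2 to 612.7 CPM, and male mutants the lowest *Cdkn1c* mean, 16.8 CPM.

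*Plagl1*, a zinc finger transcription factor that restrains cell division and acts on other imprinted genes, varied little within groups. It had 153, 179, 145, 147 and 142 counts in male controls and 263, 291, 288, 286 and 246 in female controls, or 10.9 ± 1.05 and 17.2 ± 0.987 CPM (SD, n = 5). The groups did not overlap, and the log2 difference was −0.63 ± 0.104 (edgeR adjusted p = 7.31e-04). The call held with each mouse left out in turn (adjusted p of 0.00115 to 0.00673). By litter group it was −0.63 (A), −0.47 (B) and −1.01 (C). In mutants male and female libraries were also apart, at 7.74 to 11.2 and 12.1 to 16.7 CPM, with a log2 difference of −0.58 ± 0.156 that did not pass the threshold in edgeR (adjusted p = 0.0312). Of 14 tested genes of a list of 17 imprinted genes and targets linked to *Plagl1*, 5 differed in controls and 2 in mutants, where 17.8% and 5.42% of all genes did, with medians of −0.13 and −0.31. The list holds *Plagl1* itself and other members, so these counts repeat calls given above. The 5 were *Igf2*, *Cdkn1c*, *Plagl1*, *Sgce* and *Igf2r*, and the 2 were *Igf2* and *Igf2r*.

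*Peg3* and *Mest*, both used from the paternal copy, showed no detectable sex difference at this depth. *Peg3*, a zinc finger protein of growth and behaviour, was 12.3 ± 3.09 CPM (SD, n = 5) in male controls and 15.1 ± 4.89 in female controls, with a log2 difference of −0.12 and a 95% interval of −0.58 to 0.35. In mutants it was 9.50 ± 3.28 in males and 11.4 ± 5.06 in females, with an interval of −0.60 to 0.63. *Mest*, of the alpha/beta hydrolase family, stayed between 1.40 and 3.25 CPM in all 20 libraries. Its intervals were −0.63 to 0.34 in controls and −0.76 to 0.49 in mutants. A difference of up to these bounds, or somewhat beyond them, is not excluded by the data.

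In all, 3 of the 6 tested members differed between male and female controls and 1 of 6 between male and female mutants, against 17.8% and 5.42% of all genes, and all of those called were higher in females. The 6 include *Meg3*, which was not called and is a description only, because male values chose it.

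**Figure D5:**
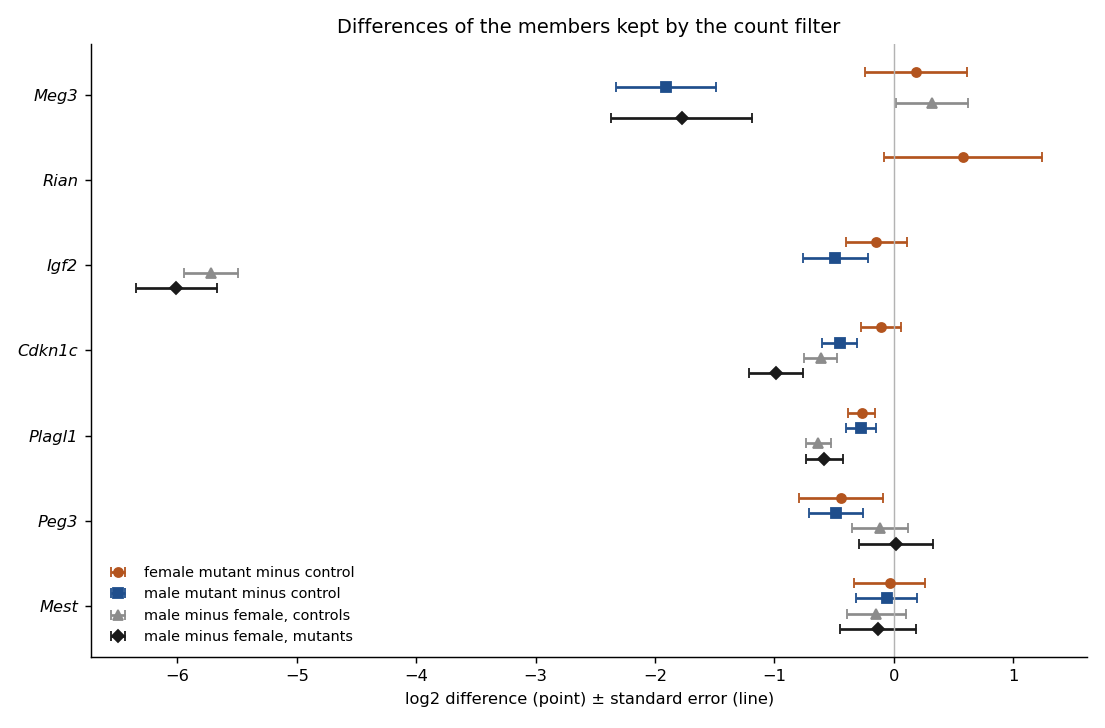
Log2 differences (horizontal axis, point, with a line of ± SE) of the 7 members that passed the count filter, in each comparison in which they passed. The sex differences of *Igf2* lie at −5.72 and −6.01, and the male mutant difference of *Meg3*, which chose the gene, at −1.90.

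*Meg3*, the long noncoding RNA of the chromosome 12 cluster, had 21, 26, 13, 21 and 26 counts in male controls and 1, 10, 7, 9 and 7 in male mutants. In CPM these were 1.54, 1.66, 0.975, 1.70 and 1.68, and 0.0567, 0.685, 0.459, 0.594 and 0.398. Every male mutant lay below every male control, the pattern for which the gene was chosen. Just inside that gap was male mutant 2 and just outside it male control 3.

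The log2 difference between male mutants and male controls was −1.90 ± 0.419 (SE), and −1.95, −1.50 and −1.78 on the log2 CPM scale within litter groups A, B and C. It lay between −2.32, without male mutant 2, and −1.55, without male mutant 1. *Meg3* was 1 of the 6 tested members called in this contrast, where 8.46% of 14010 genes were called, and nothing is read from that count because the gene was chosen for it. The call was made in 2 of the 10 fits with 1 male left out, those without male mutant 1 or 2.

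Female kidneys give the test that did not enter the choice of *Meg3*. The counts were 12, 34, 34, 18 and 22 in female controls and 25, 11, 62, 17 and 25 in female mutants, and the groups overlapped. The means were 1.48 ± 0.521 and 1.59 ± 0.905 CPM (SD, n = 5), a log2 difference (mutant minus control) of 0.19 ± 0.426 (edgeR adjusted p = 0.871), with a 95% interval of −0.65 to 1.02. The highest value, 3.10 CPM, was in female mutant 3, the library with 419.0 CPM of fat cell markers and the highest stroma sum, 1475 CPM. Without that library the difference was −0.25 (edgeR adjusted p between 0.633 and 0.979 over the 10 fits with 1 female left out). The part of those markers in the *Meg3* value was not tested. The female interval is not read against the male difference, because that contrast chose the gene. Whether the change differed between the sexes was not tested. As a description, the male minus female difference of *Meg3* was 0.32 ± 0.299 in controls and −1.78 ± 0.589 in mutants.

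*Rian*, which lies downstream of *Meg3* on the same strand and hosts small nucleolar RNAs, had 40 counts in all male controls together, 29 in male mutants, 42 in female controls and 65 in female mutants. It was tested in females, where the difference was 0.58 ± 0.663 (edgeR adjusted p = 0.699). Single female mutants had 9, 11, 22, 0 and 23 counts, and the 0 was in female mutant 4, the library with the fewest genes detected. Without that library the difference was 0.91 (edgeR adjusted p = 0.163). *Mirg*, a host of microRNAs, had 1, 0, 2 and 4 counts in the same 4 groups, too few to compare.

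*Dlk1*, the paternally used gene at the other end of the cluster, encodes a membrane protein related to Notch ligands. Its counts summed to 14 in male controls, 18 in male mutants, 26 in female controls and 10 in female mutants. It was filtered out of every comparison. The mutant to control ratio of summed CPM was 0.362 in females, with a 95% counting interval of 0.156 to 0.777, and 1.13 in males, with an interval of 0.530 to 2.45. Single female controls had 1 to 7 counts and female mutants 0 to 7, so the groups overlapped.

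A list of 8 genes of this cluster had 3 tested members in females. There edgeR called 0, where 0.637% of all genes were called. At an unadjusted p under 0.05 there were 0 of the 3, where 2979 of 14439 genes were. In males 2 were tested and 1 was called, where 8.46% of all genes were. That 1 was *Meg3*, which was chosen on this contrast. *Dio3*, the gene of the enzyme that inactivates thyroid hormone, lies at the far end and was looked at after its values were seen. It was filtered out on low counts. Male controls had 2, 2, 2, 4 and 6 counts and male mutants 20, 8, 15, 10 and 13, without overlap. Female controls had 4, 4, 4, 6 and 1 counts and female mutants 18, 16, 28, 6 and 6. The mutant to control ratio of summed CPM was 3.62 in males, with a counting interval of 2.07 to 6.70, and 3.67 in females, with an interval of 2.19 to 6.44. In CPM, female mutant 5 (0.352) overlapped the female controls, which reached 0.358. *Dio3os*, on the opposite strand, had 2.06 ± 0.693 CPM in male mutants against 2.20 ± 0.578 in their controls.

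The 5 genes whose level followed *Meg3* most closely over the 20 libraries, by Spearman correlation of log2 CPM among 14819 genes, were *Scamp5* (0.797), *Dyx1c1* (0.791), *Pnpla3* (0.789), *Spaca6* (0.755) and *Car3* (0.752). By Pearson correlation of deviations from the group means they were *Tmprss9* (0.830), *Fmo5* (0.794), *Snx31* (0.769), *Car3* (0.749) and *Tec* (0.743). Without female mutant 3, the library of highest *Meg3*, *Pkd2* came first at 0.916 over 19 libraries, followed by *Scamp5* (0.833), and 1 of the 5 genes was shared with the first list. *Meg3* was chosen for its low level in male mutants and *Pkd2* is the gene deleted in mutants, so the choice itself favours that correlation. With all 20 libraries *Pkd2* was among the 5 closest by neither measure. No other member was among the closest: the nearest was *Plagl1*, ranked 606th at 0.504, and *Rian* was ranked 847th at 0.472. The points share their libraries and *Meg3* rests on 1 to 62 counts in each, so these values are descriptions.

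Among females, 0 of the 7 members tested passed an adjusted p of 0.01 between mutants and controls in edgeR, where 0.637% of 14439 genes did. DESeq2's Wald test called 0 members and 928 of 14439 genes. In edgeR 1 member had an unadjusted p under 0.05, as did 2979 of 14439 genes. That member was *Plagl1*, at 14.0 ± 1.85 CPM (SD, n = 5) in female mutants and 17.2 ± 0.987 in female controls, with a log2 difference of −0.27 ± 0.114 (edgeR adjusted p = 0.211). *Cdkn1c* (−0.11 ± 0.168), *Peg3* (−0.44 ± 0.349) and *Mest* (−0.03 ± 0.295) had intervals that span 0. Without female mutant 4, edgeR called 0 members and 866 of 14595 genes, against 92 genes with that library included. Podocyte sums were 343.4 to 442.4 CPM in these mutants and 471.2 to 612.7 in the controls, with a median log2 difference of −0.52 over the 5 genes. Their part in these values was not tested.

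The male values of the other members are given as a description. The log2 differences (mutant minus control) were −0.45 ± 0.144 for *Cdkn1c*, −0.48 ± 0.223 for *Peg3*, −0.27 ± 0.122 for *Plagl1* and −0.06 ± 0.252 for *Mest*. *Cdkn1c* was 16.8 ± 3.65 CPM (SD, n = 5) in male mutants and 22.7 ± 3.71 in male controls. The podocyte marker list had a median log2 difference of −0.45 in male mutants. Male mutant 4 had the highest *Peg3* of its group, 15.3 CPM, together with the highest fat cell sum of its group, 52.0 CPM, and the highest urothelium sum, 31.6. Female control 3 likewise had the highest *Peg3* of its group, 19.7 CPM, with the highest fat cell and urothelium sums, 126.8 and 35.8. Male control 4 had the highest fat cell and urothelium sums of its group, 51.8 and 23.0 CPM. Its *Peg3* was 14.0, below 15.4 in male control 2. Female mutant 3 had the highest sums of its group, 419.0 and 60.2 CPM, and *Peg3* of 12.8 in a group that reached 15.9. The part of those markers in *Peg3* was not tested.

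The other imprinted genes put the members in context. Of 47 in the table, 33 were tested in females and 0 were called by edgeR between mutants and controls, where 0.637% of all genes were, with 5 at an unadjusted p under 0.05. In males 5 of 32 were called, where 8.46% of all genes were. *Slc38a4*, an amino acid transporter, rose from 2.44 ± 0.841 to 6.86 ± 1.24 CPM (log2 difference 1.56 ± 0.229, edgeR adjusted p = 0.00155). The calcitonin receptor gene *Calcr* (2.25 ± 0.431, adjusted p = 0.00495) and *Airn* (0.82 ± 0.174, adjusted p = 0.00807) also rose. *Kcnq1ot1*, the noncoding RNA of the *Cdkn1c* domain, fell (−0.59 ± 0.115, adjusted p = 0.00535), and so did *Ppp1r9a*, an actin-binding protein gene (−0.60 ± 0.125, adjusted p = 0.00758). In females *Calcr* (1.79 ± 0.361, edgeR adjusted p = 0.021) and *Slc38a4* (0.86 ± 0.246, edgeR adjusted p = 0.071) also rose, without passing the threshold. There *Airn* was at −0.11 ± 0.225, *Kcnq1ot1* at −0.15 ± 0.196 and *Ppp1r9a* at −0.04 ± 0.151. Whether these changes differed between the sexes was not tested.

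Between male and female controls 10 of 32 other imprinted genes differed, 5 in each direction, where 17.8% of all genes did. Those with the smallest adjusted p were *Impact*, a regulator of translation under stress (0.59 ± 0.0722, edgeR adjusted p = 7.72e-05), *Airn* and the trafficking gene *Trappc9* (0.51 ± 0.0699, adjusted p = 2.12e-04) among those higher in males. Among those lower in males they were the potassium channel gene *Kcnq1* (−0.48 ± 0.0958, adjusted p = 0.00247), the sarcoglycan gene *Sgce* (−0.69 ± 0.138, adjusted p = 0.00267) and *Nap1l5* (−0.82 ± 0.182, adjusted p = 0.00496). In mutants 4 of 35 differed, where 5.42% of all genes did, with *Airn*, *Igf2r* and *Trappc9* (0.66 ± 0.117, adjusted p = 0.00489) higher in males and *Nap1l5* lower (−1.32 ± 0.222, adjusted p = 0.00378). Splitting all imprinted genes by the copy in use, members included, 7 of 22 maternally used and 6 of 16 paternally used genes differed between the sexes in controls, where 17.8% of all genes did.

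Within the IGF pathway, 3 genes rose in mutants of both sexes. *Stc1*, a stanniocalcin like *Stc2*, went from 4.61 ± 0.822 to 13.3 ± 2.79 CPM in females (log2 difference 1.55 ± 0.195, edgeR adjusted p = 0.00430) and from 4.62 ± 0.946 to 11.1 ± 2.13 in males (1.25 ± 0.169, adjusted p = 0.00102). *Stc2* rose by 1.54 ± 0.238 in females (adjusted p = 0.00912) and by 2.26 ± 0.394 in males (adjusted p = 0.00334). *Igf2bp1* rose by 1.91 ± 0.284 in females (adjusted p = 0.00813) and by 0.92 ± 0.140 in males (adjusted p = 0.00181). They were 3 of 22 tested in females, where 0.637% of all genes were called, and 3 of 23 in males, where 8.46% were, with list medians of 0.05 and −0.01. Mutant kidneys had higher summed levels of 5 proliferation markers, 30.9 to 113.9 CPM in females against 10.0 to 22.0 in controls, and 46.1 to 124.4 in males against 12.5 to 18.4. Their part in these changes was not tested.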

How the data were processed

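Kidney RNA of 20 mice was sequenced, 5 for each sex and genotype. The authors deposited 1 table of read counts per gene symbol, not normalized. Per the labels and the paper's methods, fastp 0.23.2 did the trimming and STAR 2.7.10b the alignment (mm10), before DESeq2 was run in R 4.3.0. The counting tool, its annotation and its use of strand are not given in the sources used here. No column of the table belongs to other samples.

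Groups and litter groups were taken from the labels. The tests were run with edgeR 4.0.16 under R 4.3.3: TMM normalization, filterByExpr and the quasi-likelihood test with litter group as a covariate, which is the block of the design. A Benjamini-Hochberg adjusted p under 0.01 over all genes tested is a call, the study's threshold. SE is the log2 difference divided by the square root of F. Log2 CPM used a prior count of 2, and a floor of 3 counts was used for genes at 0. Genotypes were compared within each sex and sexes within each genotype. Replicates of a group differed by more than sampling noise in all 40 pairs (chi-square per degree of freedom of 5.48 to 96.9). The procedure was tested on simulated data.

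The members and lists were chosen with earlier results of these data known. The lists were other imprinted genes, the IGF pathway, genes linked to *Plagl1*, the *Dlk1* to *Dio3* cluster, and markers of tubule, podocyte, stroma, endothelium, adrenal, fat, muscle, pancreas, urothelium and proliferation. Named are the members, of the other imprinted and IGF genes at most the 3 with the smallest adjusted p for each direction and comparison, the 5 genes most like *Meg3* by each measure, *Pkd2*, and the 3 highest markers of a list, of which 1 podocyte marker is not reported here. *Igf2os*, *Ins2*, *Ins1*, *Mrpl23*, *Slc22a18*, *Dio3*, *Dio3os* and single markers outside this rule were chosen after their values were seen. Positions and promoter windows are from RefSeq, exon lengths from GENCODE M21, and all 10 members matched a gene in both, 8 of them with a promoter window. Precision is limited by counting at low levels, where 3 counts equal 0.220 CPM in male control 1. Where nothing says otherwise, each library is 1 mouse.

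Each fit was repeated with all genes of at least 1 count, without the litter term, with size factors or the Wald test of DESeq2 1.42.0, with the 20 libraries in 1 fit, and leaving out each library in turn. Y-linked genes, body weights and kidney weights were not used here.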

Additional observations from a re-analysis of the deposited data

Results flagged for a closer look

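In 33 groups of 5 libraries, the highest or lowest library was compared with the rest by its gap over the group's range, a rule that chance meets in about 1 of 20 groups. It picked out 4 values. *Meg3* was 0.975 CPM in male control 3, below the next male control at 1.54. *Dlk1* was 0.411 CPM in female mutant 5, above the next at 0.0999, a difference of a few reads. *Igf2* was 47.8 CPM in female mutant 3, below the next female mutant at 120.1 and above all males, and that library had the highest fat cell and stroma sums of its group. *Peg3* was 15.3 CPM in male mutant 4, above the next at 8.70.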

How the results depend on the processing

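The number of members called in females was 0 under all 15 alternatives. Those fits called from 3 of 14592 genes (without female control 2) to 928 of 14439 (DESeq2's Wald test). A fit that calls so few genes could hardly call a member, so its 0 shows no stability. In male against female controls 2 or 3 members were called, among 1223 to 3088 genes. Between male and female mutants 1 member was called, among 782 of 14416 genes. DESeq2's Wald test called 3 members and 1959 of 14416 genes. With no filter on low counts 2 members and 892 of 19355 genes were called. Without the replicate block (no litter term) 2 members and 921 of 14416 genes were called. With all 20 libraries in 1 fit 4 members and 2353 of 14820 genes were called. Of these 4, *Meg3* was chosen on its male mutant values and is no test. With each library left out, 1 to 2 members and 246 to 1330 genes were called. The others gained were *Cdkn1c* and *Plagl1*. The cause was not tested. The 2 sex differences of *Igf2* passed under every alternative run.

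Directions turned only among differences that did not pass the test. *Peg3* between male and female mutants was −0.27 without the replicate block and −0.15 with all 20 libraries, against 0.02. With each library left out, the range was −0.34 to 0.27 for *Peg3* and −0.32 to 0.023 for *Mest* between the sexes in mutants, −0.34 to 0.10 for *Peg3* in controls, and between female mutants and controls −0.25 to 0.42 for *Meg3*, −0.29 to 0.030 for *Igf2*, −0.23 to 0.022 for *Cdkn1c* and −0.28 to 0.077 for *Mest*. The blocked fit is the one reported, and leaving out the litter term changed no other call of a member. *Meg3*, *Rian*, *Mirg*, *Dlk1* and *H19* rest on few counts, and the 95% interval of *Meg3* in females ran from −0.65 to 1.02.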
